A study of Mus musculus with 6 samples.

Results

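Fc receptors bind the constant part of antibodies. The mRNAs of 6 genes of this family were followed in leukocytes sorted from the mouse soleus. Fcgr1, Fcgr3 and Fcgr4 encode activating receptors for IgG, and Fcgr2b encodes the inhibitory receptor for IgG. Fcer1g encodes the gamma chain through which the activating receptors signal, and Fcgrt encodes the heavy chain of the neonatal Fc receptor. The genes were taken by symbol, 6 of the 31053 genes in the count matrices, and all 6 were listed in each of the 6 libraries.

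Each library held CD45+ DAPI- cells sorted from solei pooled over several male C57BL/6 mice. The old mice were 20 to 22 months of age and the young mice 4 to 5 months. Mice of each age were ambulatory controls, were kept in hindlimb unloading (HU), in which the hind limbs bear no weight and the soleus wastes, or were returned to the cage floor for 4 days after HU (reload). Each combination of age and treatment was 1 library, so the old and young libraries of a treatment differ with no biological replicate, and no mouse can be told from another within a library. The control libraries came from another flow cell than the HU and reload libraries, so control and either treatment cannot be told apart from that run. The cells had been blocked with an Fc receptor antibody before the CD45 stain, and only mRNA, not receptor protein, was measured.

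The matrices held 15467 cell barcodes, of which 12220 passed the filters. Of the 12100 distinct kept barcodes, 120 were found in more than 1 library. The loss was uneven: 1223 of 3676 barcodes of young reload and 585 of 2126 of young HU lay over the mitochondrial limit of 10%. In old reload and old HU these were 513 of 2948 and 204 of 2124, and in old and young control 276 of 2918 and 69 of 1675. The part of this loss in the ratios of old to young was not tested. UMIs (unique molecular identifiers, 1 for each captured mRNA molecule) totalled 5782054 to 22749375 per library. Cells were assigned to classes by lists of 10 markers each, none of which held an Fc receptor of the 6, and 16.2% of cells stayed unassigned. Macrophages were the largest class with 4579 cells, 361 to 1300 per library, and 7.36% of them lay at the edge of the gate. Classical monocytes (608 cells, 20.4% at the edge) and type 2 dendritic cells (412 cells, 44.7% at the edge) were less sharply bounded. Ptprc, which encodes CD45, had 242 CPM (counts-per-million, UMIs of a gene scaled to the total of the summed cells) in macrophages, against 8.35 CPM in endothelial cells and 3.44 CPM in fibroblasts, so the last 2 classes carried little mRNA of the sorted protein.

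On phagocytes, IgG bound to a particle clusters the activating receptors, and Src family kinases phosphorylate the gamma chain, which recruits the kinase Syk and starts engulfment and the oxidative burst. Fcgr1 encodes the high affinity receptor, whereas Fcgr3 and Fcgr4 encode receptors that mainly bind IgG in complexes. Fcgr2b carries an inhibitory motif that recruits the lipid phosphatase encoded by Inpp5d, and the balance of activating and inhibitory receptors sets the threshold of the response. Fcgrt pairs with beta 2 microglobulin inside the cell and returns IgG and albumin from acid endosomes to the outside, in macrophages as well as in endothelial cells. Interferon gamma is known to raise Fcgr1 and Fcgr4 on mouse macrophages. How well macrophages of old mice take up IgG-coated particles was a question of the study, which makes the mRNA levels of these receptors of interest. The study measured that uptake in macrophages cultured from bone marrow of a second cohort of mice, not in macrophages of the soleus.

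Fcgr2b, Fcgr4, Fcgr3 and Fcer1g lie within 276 kb of mouse chromosome 1 (mm10, GENCODE vM21), at 170958617 to 170976547, 171018920 to 171029761, 171051174 to 171064935 and 171229572 to 171234365. Fcgr1 lies on chromosome 3 at 96282909 to 96293969, and Fcgrt on chromosome 7 at 45092990 to 45103851. Fcgr4 is on the plus strand and the other 5 genes are on the minus strand. Fcgr2b and Fcgrt each have an antisense gene model (Gm38204 and Gm45669) on the other strand, which were separate rows of the matrices.

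The promoters of the 3 activating receptors are shown because Fcgr1 and Fcgr4 were called higher in reload macrophages and in interferon-stimulated macrophages, while Fcgr3 was called in neither. Each runs 5′ to 3′ from 250 bases before to 50 bases after a RefSeq start (GRCm38.p6), read on the strand of the gene, and capitals mark motif matches. Fcgr1 spans chr3:96293920-96294219 on the minus strand, Fcgr4 chr1:171018676-171018975 on the plus strand and Fcgr3 chr1:171059354-171059653 on the minus strand.
Fcgr1: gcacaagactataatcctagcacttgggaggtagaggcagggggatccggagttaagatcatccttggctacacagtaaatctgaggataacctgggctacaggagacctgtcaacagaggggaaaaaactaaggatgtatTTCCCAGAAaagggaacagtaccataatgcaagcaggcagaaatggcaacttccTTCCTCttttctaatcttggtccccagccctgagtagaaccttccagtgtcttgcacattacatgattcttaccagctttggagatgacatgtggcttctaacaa
Fcgr4: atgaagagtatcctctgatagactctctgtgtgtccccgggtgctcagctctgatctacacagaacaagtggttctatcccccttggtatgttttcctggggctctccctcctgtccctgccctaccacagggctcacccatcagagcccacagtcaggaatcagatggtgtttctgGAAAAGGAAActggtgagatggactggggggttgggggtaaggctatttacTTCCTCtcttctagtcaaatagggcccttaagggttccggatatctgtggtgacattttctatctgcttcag
Fcgr3: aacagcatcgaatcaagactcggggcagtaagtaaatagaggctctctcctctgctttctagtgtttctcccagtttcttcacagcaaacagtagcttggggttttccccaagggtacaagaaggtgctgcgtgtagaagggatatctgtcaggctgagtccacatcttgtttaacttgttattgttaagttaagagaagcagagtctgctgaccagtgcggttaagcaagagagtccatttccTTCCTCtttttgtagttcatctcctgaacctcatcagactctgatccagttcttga
The letters TTCNNNGAA, the core of sites for STAT factors, were found in Fcgr1 109 bases before the start and in none of the other 5 promoters, and 8.30% of 32851 promoters of this length held them. GAAA, any 2 bases and GAAA again, a form of the interferon-stimulated response element, was found in Fcgr4 alone, 73 bases before the start, against 3.44% of all promoters. The letters GAGGAA, a core of PU.1 sites, were found as TTCCTC in Fcgr1, Fcgr4 and Fcgr3, at 55, 22 and 6 bases before the start, and 28.3% of all promoters held them. Both strands were searched, no match overlapped another, and the windows of Fcgr2b, Fcer1g and Fcgrt held none of the 3. A match is a description of these letters and was not tested as a site.

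Levels are given as CPM of the summed cells of a class in a library. A 3′ library gives each mRNA molecule 1 tag whatever its length, so levels of different genes were set side by side. Fcer1g was the most abundant of the 6 genes in every myeloid class. Its median over libraries was 5546 CPM in nonclassical monocytes (4248 to 5909, 4 libraries), 3550 in monocytes, 3091 in NK cells, 3089 in neutrophils and 2683 in macrophages. Mast cells, where the gamma chain is also part of the IgE receptor, had 2833 CPM in the 1 library with enough of them. Type 1 dendritic cells had 472 CPM, B cells 82.8 and T cells 53.6.

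The 4 IgG receptors each had their own order of classes. Fcgr1 was highest in monocytes, with a median of 170 CPM (127 to 447, 5 libraries), against 60.1 in macrophages (36.6 to 247, 6 libraries) and 36.8 in nonclassical monocytes, with medians of 1.57 to 4.33 CPM in neutrophils and dendritic cells. Fcgr3 was broad, with 544 CPM in macrophages, 454 in monocytes, 437 in neutrophils (326 to 762), 219 in type 2 dendritic cells and 170 in nonclassical monocytes. NK cells, in which the receptor encoded by Fcgr3 is known to mediate killing of antibody-coated cells, had 36.6 and 60.5 CPM in the 2 libraries that held enough of them.

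Fcgr4 had its highest median in nonclassical monocytes, with 283 CPM (250 to 348, 4 libraries), followed by neutrophils with 111 (25.5 to 133, 6 libraries). Young HU and young reload held too few nonclassical monocytes for a sum. Monocytes had 37.6 CPM and macrophages 19.9 (12.2 to 106, 6 libraries), with 61.6% of all Fcgr4 UMIs in macrophages. No UMI of Fcgr4 was counted in T cells, NK cells, type 2 innate lymphoid cells, endothelial cells or fibroblasts. Fcgr2b was highest in macrophages (558 CPM) and type 2 dendritic cells (393), with 229 in monocytes, 158 in type 1 dendritic cells and 148 in B cells, and only 32.0 in neutrophils. B cells had Fcgr2b and hardly any other IgG receptor: it made up 96.0% of their 126 receptor UMIs.

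Fcgrt was the only member with high levels outside the leukocytes. Fibroblasts had 295 and 418 CPM in the 2 HU libraries that held them, endothelial cells 144 and 226, and macrophages a median of 321 CPM over all 6 libraries, with 364 and 746 in old and young HU. Type 1 and type 2 dendritic cells had 134 and 122 CPM, monocytes 40.9 and neutrophils 14.9. None was counted in the 2 libraries with enough NK cells for a sum, and 1 UMI in all 245 NK cells. B2m, the partner of the neonatal receptor, had 1618 CPM in macrophages (1064 to 2114 over libraries), above Fcgrt in all 6.

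**Figure D1:**
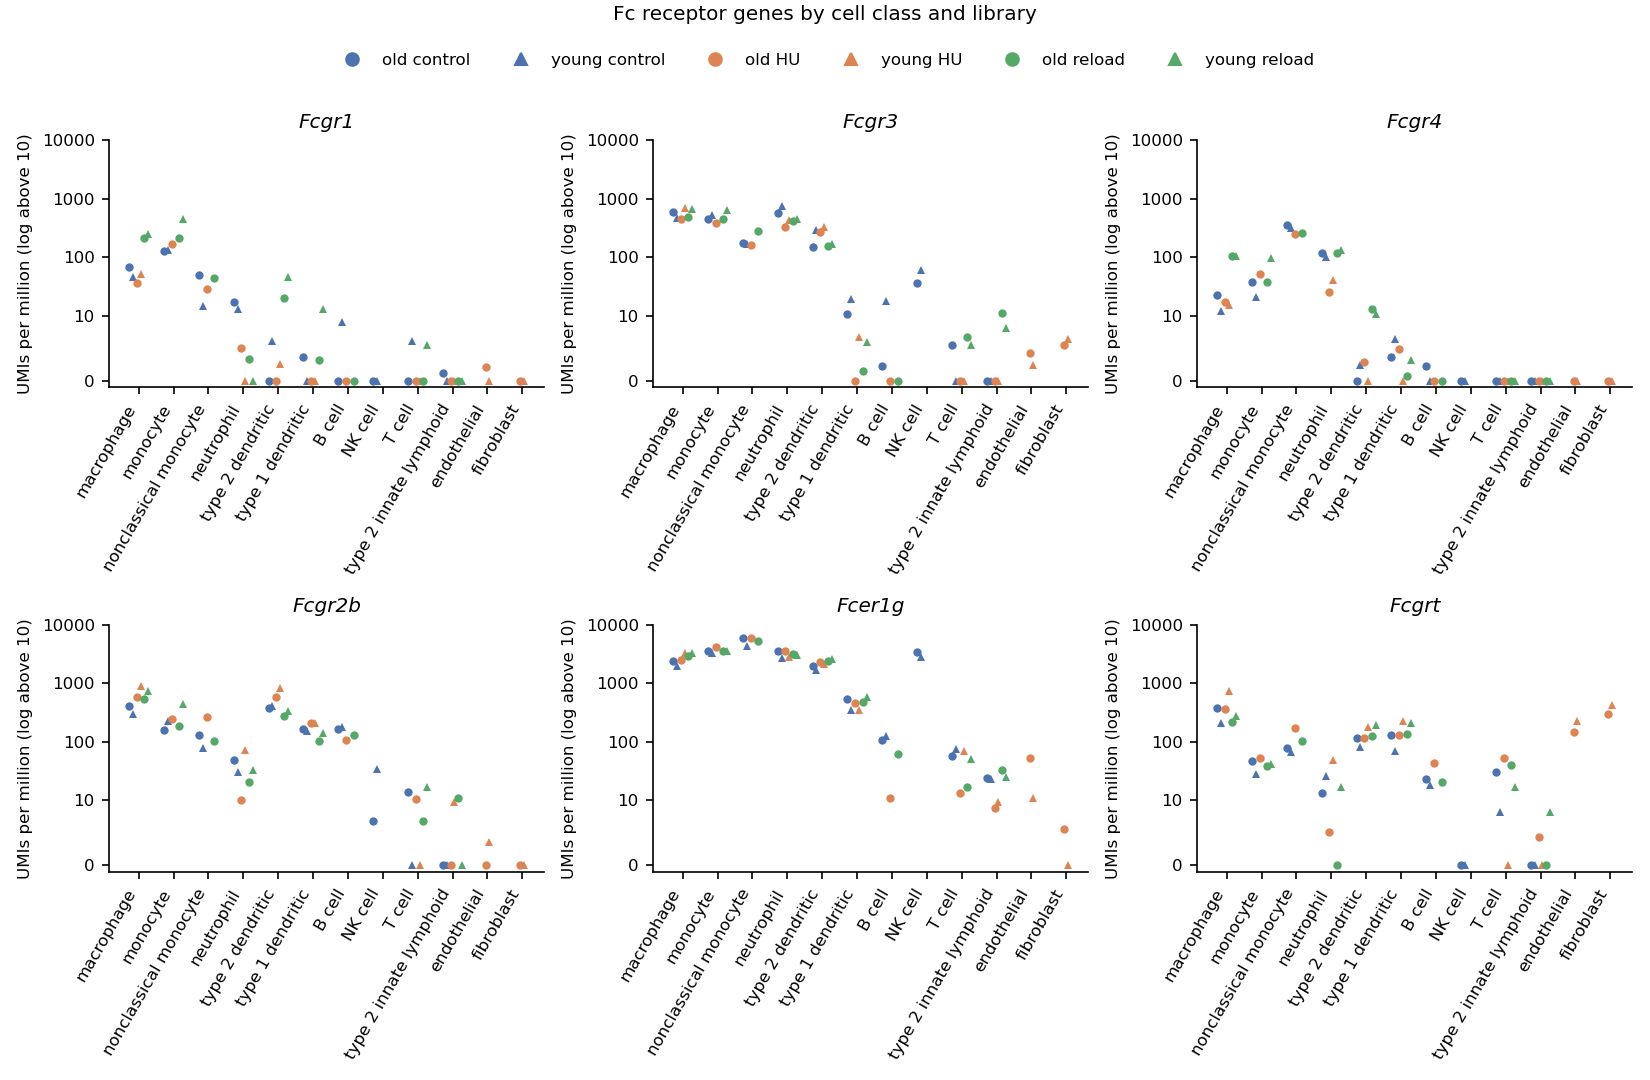
Levels of the 6 genes in 12 cell classes; each point is 1 library, circles for old and triangles for young mice, and the y axis is CPM, logarithmic above 10. Fcgr4 sits at 250 to 348 CPM in nonclassical monocytes, Fcgr1 is highest in monocytes and macrophages, and Fcgrt is at 295 and 418 CPM in fibroblasts of HU, below macrophages of the same libraries (364 and 746).

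Neighbours in each order were compared within libraries by an exact two-sided sign-flip permutation test of log2(CPM + 10). Over 48 pairs the lowest adjusted p (Benjamini-Hochberg) was 0.3. The smallest p the test allows is 0.03125 with 6 libraries, 0.0625 with 5 and 0.125 with 4. After adjustment over the 48 pairs no neighbouring pair could have passed the threshold, so the test cannot decide whether neighbours differ. The values of a pair did not overlap in 9 of the 48, among them Fcgr4 in nonclassical monocytes above neutrophils, Fcgr3 in neutrophils above type 2 dendritic cells and Fcgr2b in nonclassical monocytes above neutrophils. How often this holds over all genes is not given here.

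Larger gaps were tested across all genes with edgeR's quasi-likelihood test (Benjamini-Hochberg adjustment), with the library as a block. Monocytes against macrophages gave 28.4% of 10300 genes called, and 3 of the 6 receptors. Fcgrt was at -2.94 on the log2 scale (SE 0.27, edgeR adjusted p = 2.37e-13), lower in monocytes in 5 of 5 libraries, and Fcgr2b at -1.07 (SE 0.25, adjusted p = 0.000794), also in 5 of 5. Fcgr1 was higher in monocytes by 0.87 (SE 0.26, edgeR adjusted p = 0.00781) in 4 of 5 libraries. That call was lost with DESeq2 (adjusted p = 0.430), with classes from clusters (edgeR adjusted p = 0.314), without young control (0.0675) and without old HU (0.0918). Fcgr3, Fcgr4 and Fcer1g did not pass.

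Neutrophils against macrophages gave 56.5% of genes called and 5 of the 6 receptors, a share set against a background where most genes differ. Fcgr4 was higher in neutrophils by 1.71 (SE 0.34, edgeR adjusted p = 3.25e-05) in 6 of 6 libraries, while Fcgr1 was lower at -2.49, Fcgr2b at -3.43 and Fcgrt at -3.89, in all 6. Relative to the scaling, the median of all genes was at -0.56. Fcer1g was higher by 0.52 (edgeR adjusted p = 0.0304) in 4 of 6 libraries, which was lost without TMM scaling (0.408), with classes from clusters (0.244), with doublets kept (0.0906) and without old control (0.305), young control (0.126), old HU (0.0568) or old reload (0.0934). Fcgr3 turned its direction between scalings (0.19 with TMM and -0.17 without), past the threshold in neither.

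Type 2 dendritic cells shared Fcgr2b and Fcer1g with macrophages and had less of the rest. Against macrophages 25% of genes were called. Fcgr1 was lower at -2.81, Fcgr4 at -2.78, Fcgr3 at -1.15 and Fcgrt at -1.15 (edgeR adjusted p of at most 9.59e-05), each in 6 of 6 libraries, whereas Fcgr2b (-0.16, SE 0.23) and Fcer1g (-0.16, SE 0.21) did not pass. Missing the threshold does not show that their levels were alike: Fcer1g was lower in type 2 dendritic cells by CPM in 6 of 6 libraries.

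Among lymphocytes the receptors separated the lineages. NK cells against T cells gave 8.64% of genes called. Fcer1g was higher in NK cells by 5.84 (SE 0.32, edgeR adjusted p = 1.35e-21) and Fcgr3 by 3.19 (SE 0.62, edgeR adjusted p = 0.000175), both in 2 of 2 libraries. Fcgrt was called lower in NK cells with 0 UMIs in both NK sums, so its fold is not given. B cells against T cells gave 19.1% of genes called, of which Fcgr2b was the single receptor, higher in B cells by 3.85 (SE 0.43, edgeR adjusted p = 1.49e-10) in 4 of 4 libraries.

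The make-up of the IgG receptors told the myeloid classes apart. Shares were taken of UMIs added over libraries, so deep libraries weigh most. Of 44014 receptor UMIs in macrophages, 42.2% were Fcgr2b, 40.7% Fcgr3, 11.9% Fcgr1 and 5.24% Fcgr4. Monocytes had 49.2% Fcgr3, 23.7% Fcgr2b and 22.1% Fcgr1 of 5265 UMIs, nonclassical monocytes 44.8% Fcgr4 and 31.0% Fcgr3 of 672, and neutrophils 78.4% Fcgr3 and 14.6% Fcgr4 of 1394. Type 2 dendritic cells had 62.9% Fcgr2b of 2535 UMIs, and type 1 dendritic cells 89.2% of 802. Cells left unassigned held 10134 such UMIs, 39.9% of them Fcgr2b and 40.3% Fcgr3. Macrophages, by their number and depth, held 53.9% (Fcer1g) to 69.7% (Fcgr2b) of all UMIs of each gene.

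**Figure D2:**
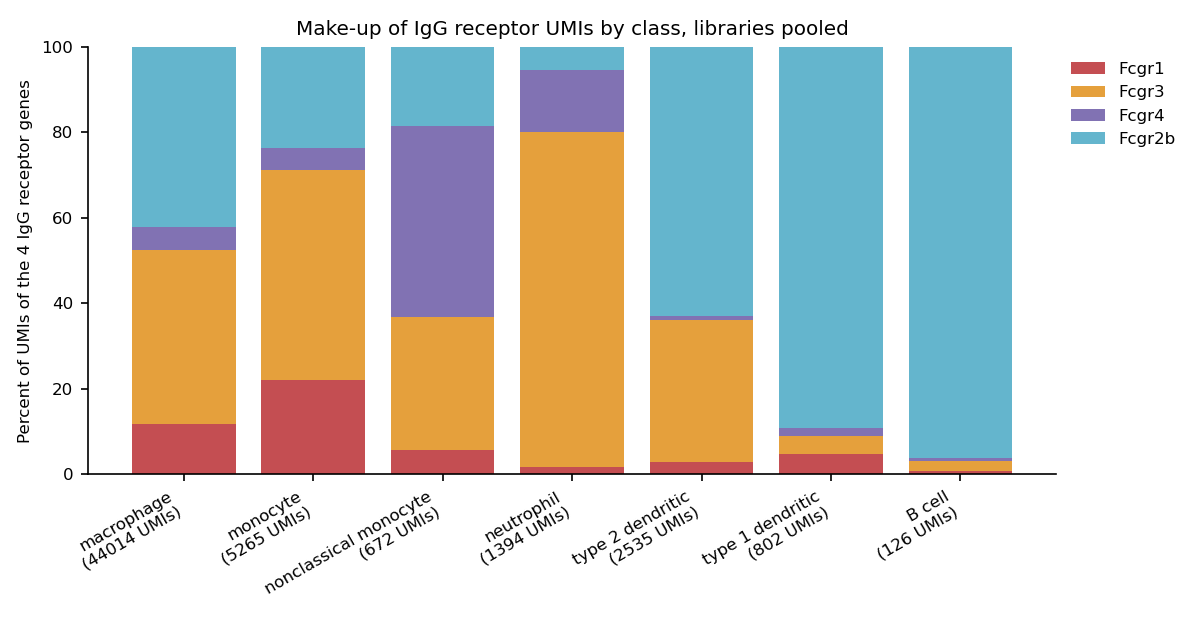
Share of the UMIs of Fcgr1, Fcgr3, Fcgr4 and Fcgr2b (percent, stacked bars that sum to 100) in 7 classes, libraries added together. Fcgr2b makes up 89.2% in type 1 dendritic cells and 5.38% in neutrophils, and Fcgr4 reaches its highest share, 44.8%, in nonclassical monocytes.

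The ratio of activating (Fcgr1, Fcgr3 and Fcgr4 added) to inhibitory (Fcgr2b) UMIs was 2.49 to 3.87 in monocytes, 1.70 to 6.31 in nonclassical monocytes, 6.44 to 35.0 in neutrophils, 0.402 to 0.734 in type 2 and 0.0238 to 0.174 in type 1 dendritic cells. The ranges of neutrophils, type 2 and type 1 dendritic cells did not overlap each other. In macrophages the ratio was 1.68 in old and 1.77 in young control, 0.882 in old and 0.843 in young HU, and 1.49 in old and 1.41 in young reload. The old and young libraries of a treatment were closer to each other than to any library of another treatment. With Fcgr3 alone above Fcgr2b the ratio was 1.46 and 1.57 in old and young control, 0.788 and 0.768 in HU, and 0.904 and 0.923 in reload.

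Reload against HU asked what loading after disuse did to the receptors of macrophages. Fcgr1, the high affinity receptor, had 69.1 and 45.3 CPM in old and young control, 36.6 and 51.0 in old and young HU, and 213 and 247 in old and young reload. Fcgr4 had 22.6 and 12.2 CPM in old and young control, 17.2 and 15.4 in HU, and 106 and 105 in reload. For both genes the 2 reload libraries lay above the other 4. The share of all genes that did so is not given here, so the gap is a description only.

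Fcgr3 had 599 and 468 CPM in old and young control, 452 and 678 in HU, and 489 and 672 in reload. Fcgr2b had 410 and 298 CPM in old and young control, 574 and 884 in HU, and 541 and 728 in reload. In control Fcgr3 thus lay above Fcgr2b, unlike in HU and reload, where the order of the added UMIs held. In both genes the 2 old libraries of HU and reload lay below the 2 young ones, and in control the old library lay above the young one.

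Fcer1g had 2405 and 1961 CPM in old and young control, 2432 and 3314 in HU, and 2935 and 3297 in reload. Fcgrt had 369 and 208 CPM in old and young control, 364 and 746 in HU, and 216 and 278 in reload. Young HU was the highest library for Fcgrt, and the reload libraries lay below both HU libraries.

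**Figure D3:**
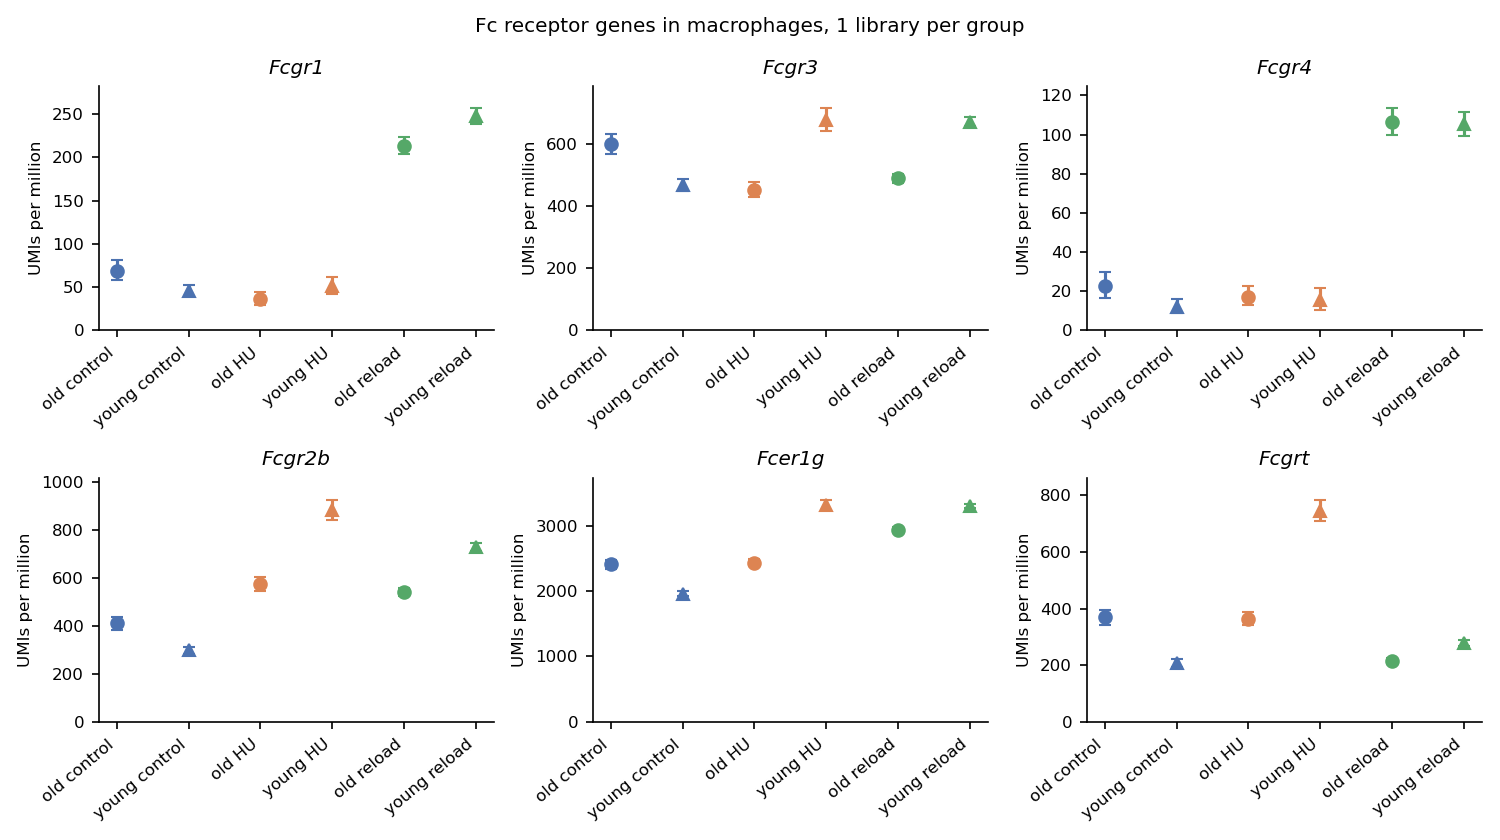
CPM of the 6 genes in macrophages of each library, with 95% Poisson intervals that cover counting error only; libraries run from control through HU to reload, old left of young. Fcgr1 and Fcgr4 stand at 213 to 247 and 105 to 106 CPM in reload, and Fcgrt is highest in young HU at 746 CPM.

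Fitted over the 6 macrophage libraries with age as a block (edgeR, 2 residual degrees of freedom), reload minus HU gave 547 of 9507 genes called, 5.75%, with 261 higher and 286 lower in reload. The filter on low counts grouped libraries by age, so a gene counted in the reload libraries alone could not pass it. With no filter, 1064 of 17005 genes were called higher and 659 lower in reload. Of the 6 receptors 2 were called, with the filter and without it. Fcgr1 was higher in reload by 2.43 on the log2 scale (SE 0.28, edgeR adjusted p = 0.0299), and Fcgr4 by 2.74 (SE 0.26, edgeR adjusted p = 0.0291). Within an age, Fcgr1 was 5.83-fold higher in old reload than old HU (1906 and 104 UMIs, log2 ratio 2.54, interval 2.26 to 2.84) and 4.84-fold higher in young reload than young HU (2750 and 103 UMIs, 2.28, interval 1.99 to 2.57). Fcgr4 was 6.18-fold higher in old reload (952 and 49 UMIs) and 6.86-fold higher in young reload (1172 and 31 UMIs).

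Both calls rested on few libraries: without young control or without young reload no gene passed the threshold, with edgeR adjusted p = 0.0662 for both genes without young control and 0.197 (Fcgr1) and 0.153 (Fcgr4) without young reload. The fold changes stayed between 2.22 and 2.67 for Fcgr1 and between 2.45 and 3.03 for Fcgr4 over all 6 omissions. The HU and reload libraries carried different number prefixes in their labels, a difference that cannot be told apart from the treatment.

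The other 4 receptors did not pass. Fcgrt was at -1.10 (SE 0.38, edgeR adjusted p = 0.124), at 0.592 of the HU level in old and 0.373 in young reload, and was called only without old HU. Fcgr3 (0.08, edgeR adjusted p = 0.859), Fcgr2b (-0.16, 0.721) and Fcer1g (0.16, 0.655) had the smallest differences. By size alone (a log2 ratio of at least 0.5 with its 95% interval off 0), 3 of the 6 passed in each age, where 35.7% of 5021 genes did so in old and 50% of 5338 in young macrophages. On mean UMIs per cell with no scaling for depth, 5 of the 6 passed in each age, and the median depth of a macrophage was 6626 and 7894.5 UMIs in old and young reload, against 3515 and 3148 in HU.

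The cells that made up the macrophage gate also changed with reload. Of the 10 monocyte markers, the summed level was 1346 and 1988 CPM in old and young reload, against 373 and 99.1 in HU, with Plac8, Chil3 and Vcan among those at 0 in young HU. Cells with at least 4 of 10 markers of resident macrophages (Lyve1, Folr2, Timd4 and others) made up 25.4% and 23.7% of macrophages in reload, against 59.8% and 59.5% in HU. Inside the resident cells the reload to HU log2 ratio was 2.52 in old and 1.94 in young mice for Fcgr1 and 2.67 and 2.96 for Fcgr4. In the macrophages that were not resident it was 2.56 and 2.67 for Fcgr1 and 2.39 and 2.39 for Fcgr4.

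Leaving out every macrophage with any monocyte marker, a choice made after seeing the data, the ratios were smaller: 2.17 in old and 1.28 in young for Fcgr1, and 1.58 and 1.14 for Fcgr4. That choice left 183 of 1201 old and 118 of 1300 young reload macrophages, and 372 of 620 and 486 of 575 in HU. Of these ratios, only that of Fcgr1 in old had an interval (1.61 to 2.76) that held the ratio of all macrophages. Fcgrt turned to 0.27 in old macrophages under that choice and was at -0.55 in young ones. Within resident cells Fcgrt had 483 CPM in old reload against 473 in old HU, but 514 in young reload against 1051 in young HU.

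Genes that act with the receptors were read from lists, beside a median of 0.02 over all 9507 genes. Of all genes 5.75% were called in either direction, 261 higher and 286 lower. Of 22 genes of activating signalling, 4 were higher in reload and none lower, with a median of 0.59. Among these were Fgr (1.79), a Src family kinase, the exchange factor Vav1 (1.11) and Pik3cd (1.06), a catalytic subunit of PI3 kinase, with edgeR adjusted p of 0.0454, 0.0418 and 0.0472. Syk (0.64, edgeR adjusted p = 0.168), the kinase next to the gamma chain, did not pass. Syk, Inpp5d, Tyrobp and Irf1 are named for their roles, after their values were seen.

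None of 12 genes of inhibitory signalling was called (median 0.34). Inpp5d, the phosphatase that acts below Fcgr2b, had 93.3 and 108 CPM in old and young reload, against 120 and 156 in HU (-0.42, edgeR adjusted p = 0.211). Of 19 genes of the oxidase and engulfment 1 was higher, the myosin Myo1f (1.66, edgeR adjusted p = 0.0355), a share near the 5.75% of all genes, and the median was 0.46. The 8 measured genes of a partner list had a median of 0.82 with none called. The list held B2m, Tyrobp, lectins and other receptors, not only genes that pair with the gamma chain or Fcgrt. Tyrobp, another adaptor with an activating motif, was at 0.12.

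Of 11 targets of interferon gamma, 2 were higher in reload, Tap1 (1.25, edgeR adjusted p = 0.0455) among them, and the median was 0.38. Irf1 was at -0.89 (adjusted p = 0.0857). Of 9 targets of IL-4 or glucocorticoids, 3 were lower and none higher (median -1.01). Arg1, also on that list, did not pass the filter on low counts. Fkbp5 (-3.28) and Tsc22d3 (-2.51), which glucocorticoids induce, and Cd163 (-2.33), which is also one of the markers of the resident cells, were lower. Tsc22d3 had 81.7 and 152 CPM in old and young reload, against 385 and 1057 in HU.

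Macrophages were next split by state within each library. Resident cells against other macrophages gave 15.8% of 8177 genes called, and 2 receptors. Fcgrt was higher in resident cells by 1.58 (SE 0.10, edgeR adjusted p = 7.34e-09) in 6 of 6 libraries, with 496 CPM against 158 in old control, 314 against 115 in young control, 473 against 178 in old HU and 1051 against 242 in young HU. In reload it was 483 against 124 in old and 514 against 180 in young macrophages. Resident cells of each library were thus above the other macrophages of all 6 libraries in Fcgrt. The share of all genes with such a gap is not given here, so the gap is a description only.

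Fcgr4 was lower in resident cells at -0.56 (SE 0.15, edgeR adjusted p = 0.0191) in 6 of 6 libraries, a call lost without TMM (0.0525), with classes from clusters (0.0658) and under thinning to 2000 UMIs (0.171). Fcgr1 (-0.26, edgeR adjusted p = 0.105), Fcgr3, Fcgr2b and Fcer1g did not pass. Fcgr1 was called lower in resident cells under the stricter gate (0.0327), with classes from clusters (0.00713), under thinning (0.0333) and without young HU (0.0347). Of the 22 genes of activating signalling 8 were lower in resident cells and none higher, with the adaptor Lat2 (-0.80), the small GTPase Rac2 (-0.34), the kinase Lyn (-0.32) and Prkcd (-0.31) among those with most UMIs. Of 12 inhibitory genes 3 were lower, the receptor genes Lilrb4a (-0.68) and Cd300a (-0.52) and the kinase Csk (-0.37). Of 8 genes of the partner list 3 were lower, all lectins: Clec4e (-1.13) and Clec4d (-0.41), which signal through the gamma chain, and Clec4a2 (-0.33). Of 19 genes of the oxidase and engulfment 6 were lower, the oxidase subunits Cyba (-0.27) and Cybb (-0.26) and the actin regulators Coro1a (-0.46) and Arpc2 (-0.30) among them. The median of all genes was at -0.0041.

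Macrophages with at least 4 of 10 interferon-stimulated markers (Ifit1, Rsad2, Isg15 and others) made up 3.88% and 1.34% of macrophages in old and young control, 3.87% and 1.22% in HU, and 14.2% and 11% in reload. These shares were taken without thinning, and deeper cells detect more markers. The median depth of the subset was 7775 UMIs in old HU, against 3436.5 in the others, and 8153 against 6277.5 in old reload. The part of depth in these shares was not tested. Against the other macrophages of the same library, in the 3 libraries with at least 20 such cells, 4.03% of 8831 genes were called. Fcgr1 was higher by 1.51 (SE 0.11, edgeR adjusted p = 9.78e-08) and Fcgr4 by 1.49 (SE 0.12, adjusted p = 2.22e-07), each in 3 of 3 libraries. The other 4 receptors did not pass, and Fcgr3 was at -0.17 and Fcgr2b at 0.05.

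By library, Fcgr1 had 122 CPM in interferon-stimulated macrophages against 30.2 in the others of old HU, 434 against 162 in old reload, and 530 against 192 in young reload. Fcgr4 had 20.3 CPM against 17.0 in old HU, on 4 and 45 UMIs, 224 against 79.3 in old reload, and 231 against 80.9 in young reload. The difference of Fcgr4 was thus clear in reload and within counting error in old HU. Of 11 targets of interferon gamma 7 were higher, Gbp2 (2.67), Tap1 (1.48) and Socs1 (0.73) among them. These cells were picked by interferon-stimulated markers, so that count is not independent of the choice. The signalling genes that were higher included Csk (0.48). Arg1, an enzyme that IL-4 induces in mouse macrophages, was lower (-1.27).

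In reload both receptors were higher in cells with many interferon markers than in cells with none. Fcgr1 had 148 CPM in old and 161 in young macrophages with no such marker, and 613 and 635 in those with 6 to 10. Fcgr4 had 66.5 and 77.8 CPM with no marker, and 333 and 290 with 6 to 10. Fcgr3 did not share this, with 528 and 714 CPM with no marker and 405 and 621 with 6 to 10.

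The cells also differed in depth, with a median of 4968 and 6315 UMIs at no marker and 8678 and 11255.5 at 6 to 10, and the part of depth was not tested. Among macrophages with no interferon marker, Fcgr1 had the 148 and 161 CPM given above in old and young reload, against 30.6 and 44.0 in HU. Without the interferon-stimulated cells, the reload to HU log2 ratio was 2.42 in old and 1.95 in young macrophages for Fcgr1, and 2.22 and 2.38 for Fcgr4.

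**Figure D4:**
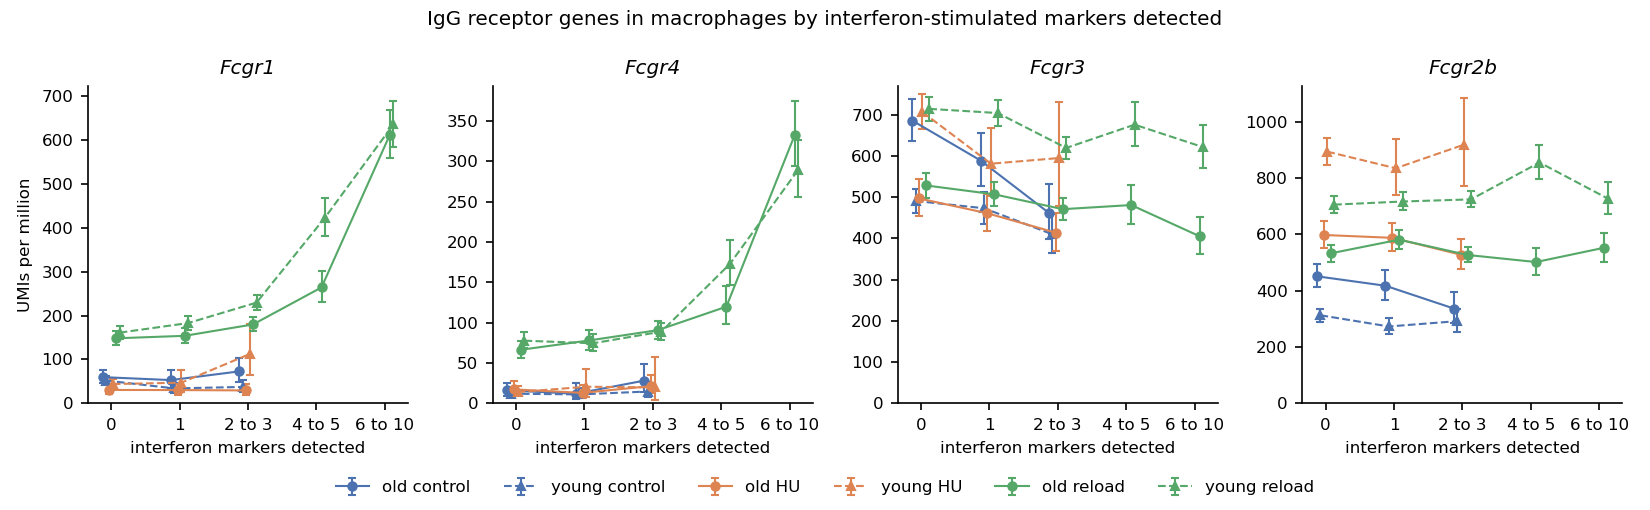
CPM of Fcgr1, Fcgr4, Fcgr3 and Fcgr2b in macrophages grouped by how many of 10 interferon-stimulated markers were detected, 1 line per library; groups of 4 to 5 and 6 to 10 markers had enough cells only in reload. Fcgr1 reaches 613 and 635 CPM and Fcgr4 333 and 290 CPM in old and young reload, while Fcgr3 does not climb.

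Shares of cells were taken at a fixed depth, since deeper cells detect more genes. After each macrophage was thinned to 2000 UMIs, Fcgr1 was detected in 10.8% and 8.85% of old and young control cells, 7.05% and 10.8% of HU cells, and 29.4% and 33.7% of reload cells. Fcgr4 was detected in 2.47% and 2.47%, 2.99% and 3.36%, and 16.8% and 15.3%. T cells, in which these genes have no known role, had 0 of 471 cells with either gene in old control, which allows up to 0.780% (exact 95% interval). The other 5 libraries also had 0, with fewer T cells, which allows up to 4.02% in young control, 3.97% and 14.8% in old and young HU, and 5.69% and 7.87% in old and young reload. The shares of Fcgr4 in macrophages of young control and of both HU libraries, and that of Fcgr1 in young HU, lay below these limits. The median depth before thinning was 3751 to 8327 UMIs in these macrophages and 2536 to 4544.5 in the T cells, and 36 to 158 shallower macrophages per library were left out.

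At that depth Fcer1g was found in 96.7% to 99.5% of macrophages, and Fcgrt in 47.2% and 32.3% of old and young control cells, 47.6% and 69.8% of HU cells, and 32.2% and 36.3% of reload cells. Activating and inhibitory IgG receptors were found together in 39.5% and 27.6% of old and young control macrophages, 41.0% and 60.9% in HU, and 47.9% and 60.8% in reload. Cells with neither made up 4.80% in young HU and up to 24.9% in young control. Before thinning, Fcgr1 was detected in 64.5% of young reload and 26.1% of young control macrophages.

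Age was tested over the 3 treatments as blocks. Old minus young gave 0 of 9507 genes called with edgeR, 0%, with 423 at an unadjusted p under 0.05, and DESeq2 called 5 genes, none of them a receptor. Fcgr4 was at 0.33 (SE 0.21, edgeR adjusted p = 0.885), Fcgr3 at -0.21 (SE 0.20), Fcgr2b at -0.17 (SE 0.22), Fcgrt at -0.17 (SE 0.32), Fcer1g at -0.08 (SE 0.17) and Fcgr1 at -0.01 (SE 0.22). None of the 7 other lists had a gene called either. The targets of interferon gamma had a median of 0.68, against 0.01 over all genes.

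The old to young ratios of 5 receptors differed in sign between control and the other treatments. In control the log2 ratio was 0.83 for Fcgrt (interval 0.69 to 0.96), 0.61 for Fcgr1, 0.46 for Fcgr2b, 0.35 for Fcgr3 and 0.29 for Fcer1g. In HU it was -1.03 for Fcgrt (-1.15 to -0.92), -0.62 for Fcgr2b, -0.58 for Fcgr3, -0.48 for Fcgr1 and -0.45 for Fcer1g. In reload it was -0.46 for Fcgr3, -0.43 for Fcgr2b, -0.37 for Fcgrt, -0.21 for Fcgr1 and -0.17 for Fcer1g.

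Fcgr4 was the exception, with 0.89 in control (0.31 to 1.47, on 50 and 54 UMIs), 0.17 in HU and 0.02 in reload. Among genes with at least 200 UMIs in the pair of libraries, 5 of the receptors in control and HU and all 6 in reload, those past the size rule were 2 in control (Fcgr1 and Fcgrt), against 14.4% of 3434 genes, 3 in HU (Fcgr3, Fcgr2b and Fcgrt), against 33.4% of 2612, and 0 in reload, against 6.84% of 6465. Fcgr4 was past it in control as well, below that number of UMIs. The medians over all those genes were 0.05, -0.11 and -0.02. These are single libraries of each kind, and the intervals cover counting error only.

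The size of these ratios depended on the scaling. With TMM factors the HU ratios were -0.83 for Fcgrt, -0.42 for Fcgr2b, -0.38 for Fcgr3, -0.28 for Fcgr1 and -0.25 for Fcer1g, and only Fcgrt was past the rule. On mean UMIs per cell the control ratios were 0.35 for Fcgrt and 0.14 for Fcgr1, and the signs of Fcgr3 (-0.12), Fcer1g (-0.18) and Fcgr2b (-0.01) turned, with none of the 6 past the rule. In reload, mean UMIs per cell put Fcgr3 at -0.66, Fcgr2b at -0.63 and Fcgrt at -0.57. In reload macrophages with no monocyte marker, Fcgr1 (0.08), Fcgrt (0.04) and Fcgr2b (-0.01) had intervals that included 0, and Fcgr3 (-0.55) and Fcer1g (-0.20) did not.

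The young HU library also stood apart in its markers. The 10 macrophage markers summed to 28749 CPM in young HU and to 13070 to 17910 in the other 5 libraries, and the resident markers to 2689 CPM in old HU, against 4612 in young HU. The neutrophil markers in macrophages summed to 803 CPM in old HU, against 35.7 in young HU, and to 2829 in old control, against 355 in young control. Leaving out every macrophage with any neutrophil marker, a choice made after seeing the data, kept 242 old and 381 young control macrophages. In HU it kept 511 and 529. The old to young log2 ratios of control were then 0.84 for Fcgrt, 0.65 for Fcgr1, 0.39 for Fcgr3, 0.33 for Fcgr2b and 0.19 for Fcer1g. In HU the ratios were -1.0035 for Fcgrt, -0.603 for Fcgr3, -0.598 for Fcgr2b, -0.48 for Fcgr1 and -0.46 for Fcer1g. The part of these markers in the receptor ratios was not tested. Within resident cells the old to young log2 ratio of Fcgrt in HU was -1.15, on 473 against 1051 CPM, and among the other macrophages it was -0.44, on 178 against 242.

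**Figure D5:**
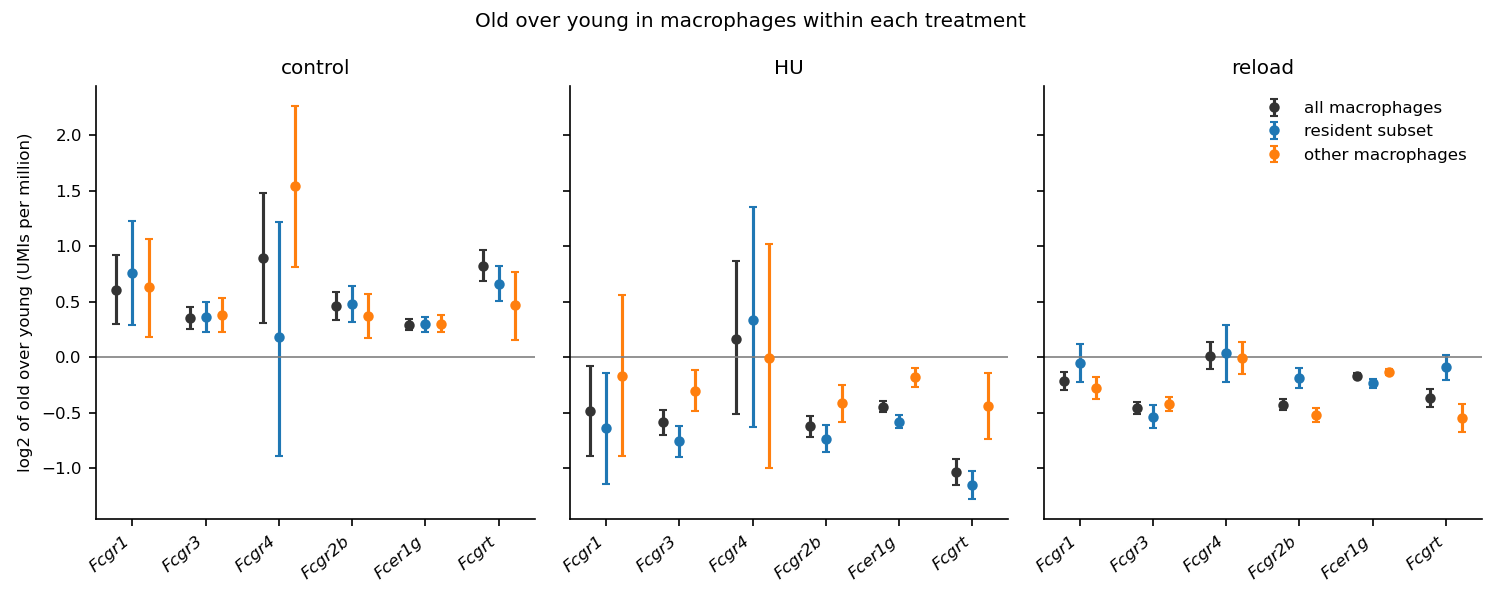
Log2 ratio of old to young CPM of the 6 genes in control, HU and reload, for all macrophages, resident macrophages and the others; bars are 95% intervals for counting error in 1 library per group. Fcgrt is at 0.83 in control and -1.03 in HU, and all ratios in all macrophages of reload lie between -0.46 and 0.02.

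For Fcgr1, Fcgr2b and Fcgr4 the old to young ratios of reload were larger in size in monocytes than in macrophages, a difference that was not tested. Old reload had 174 monocytes and young reload 166. Fcgr1 had 213 CPM in old against 447 in young reload (log2 ratio -1.07, interval -1.29 to -0.86), Fcgr2b 184 against 442 (-1.26) and Fcgr4 37.3 against 97.3 (-1.38). Fcgr3 had 443 against 639 CPM (-0.53). Fcer1g, with 3550 and 3558 CPM, and Fcgrt, with 38.9 and 40.9, had intervals that included 0. With classes from clusters both were off 0, Fcgrt at -0.71 (-1.15 to -0.28) and Fcer1g at -0.06 (-0.11 to -0.01), while a stricter gate and thinning left them with intervals that included 0.

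In control monocytes Fcgr1 had 127 CPM in old and 132 in young mice (-0.06), and Fcgr2b 160 and 229 (-0.52). Under a stricter gate, under clusters and after thinning, all chosen after seeing the data, the reload ratio ran from -1.02 to -1.36 for Fcgr1, from -1.08 to -1.31 for Fcgr2b, from -1.21 to -1.46 for Fcgr4 and from -0.49 to -0.60 for Fcgr3. Macrophage markers moved with it: all 10 were detected in both, at a sum of 1353 CPM in old and 2569 in young reload monocytes, while the monocyte markers summed to 10249 and 10184. The part of these in the ratios was not tested.

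Type 2 dendritic cells of reload had less Fcgr2b than those of HU. In type 2 dendritic cells Fcgr2b had 273 CPM in old reload against 571 in old HU (log2 ratio -1.06), and 332 in young reload against 812 in young HU (-1.29). Fcgr3 had 158 against 270 CPM in old (-0.77) and 169 against 324 in young type 2 dendritic cells (-0.94). In type 1 dendritic cells of old mice Fcgr2b had 101 CPM in reload against 205 in HU (-1.02), and in those of young mice 140 against 208 (-0.57, interval -1.10 to 0.01).

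Classes outside the phagocytes bore on Fcgrt. In HU it had 144 CPM in old against 226 in young endothelial cells (-0.65, interval -1.08 to -0.25) and 295 against 418 in fibroblasts (-0.50, -0.99 to -0.03), the same direction as in macrophages of those libraries. In neutrophils of old mice Fcgr4 had 119 CPM in reload against 25.5 in HU, on 35 and 5 UMIs.

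Relatives of the 6 genes marked other cells. Mast cells had 1985 CPM of Fcer1a and 288 of Ms4a2, the alpha and beta chains of the IgE receptor. B cells had 520 CPM of the IgM receptor gene Fcmr, 155 of Fcer2a, which encodes CD23, and 145 of Fcrla. Fcrls was found in macrophages (182 CPM, 64.7 to 247), and Cd300ld in neutrophils (723) and nonclassical monocytes (446). Fcamr and Pigr had no UMI in the summed classes, and Oscar and Gp6 reached at most 2.06 and 0.444 CPM in any of them.

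The genes whose levels ran most like each receptor were taken over 57 sums of class and library and 9540 genes, which share libraries, so the correlations are descriptions only. Fcer1g was closest to Tyrobp (Pearson r 0.96), which encodes a second signalling adaptor. It was followed by Efhd2, Cd300a, Plek and Fcgr3 (0.88 each). Fcgr1 was closest to the scavenger receptor gene Msr1 (0.92), followed by Ms4a6d, Ms4a8a, Ms4a4a and Tfec (0.87). Fcgr3 was closest to the integrin gene Itgam (0.92), followed by Clec4a2, Emilin2, the Toll-like receptor gene Tlr2 and Lilrb4a (0.90). Fcgr4 was closest to Lst1 (0.91), followed by genes that included Slc11a1, Cd300ld and Sirpb1c (0.89). Fcgr2b ran closest to Cd74 (0.91), the invariant chain of MHC class II, then Ly86 and the class II genes H2-Aa, H2-Eb1 and H2-DMb1 (0.90). Fcgrt had lower values throughout, with Lifr at 0.81, then genes that included Anxa5, Clic4 and Cst3 (0.79). Among the 6, Fcgr3 and Fcer1g were most alike (0.88), and Fcgr4 and Fcgrt least (0.14).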

How the data were processed

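Per the labels, leukocytes sorted as CD45+ DAPI- from pooled solei were run on 10x Chromium 3′ chemistry. The authors deposited UMI counts per gene and cell barcode, made with Cell Ranger 3.1.0 on mm10 according to the submitters' processing notes, which also list Seurat. All 6 libraries were used, and 0 per-sample columns were left out.

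Barcodes with at least 200 genes and at most 10% mitochondrial UMIs were kept, and 300 predicted doublets (scanpy 1.11.5) were removed. A cell joined a class with at least 3 of its 10 markers detected and a lead of 2 over every other of 20 classes. The resident and interferon-stimulated subsets needed 4 of 10 markers. These thresholds were set after seeing marker counts, and the members and lists were chosen with earlier results of these data known. Counts were summed per class and library, with at least 20 cells to a sum (57 sums). Sums were tested with edgeR 4.0.16 (TMM, quasi-likelihood, R 4.3.3) across all genes passing its filter on low counts, with age, treatment or library as a block, and with DESeq2 1.42.0 as an alternative. Tests were checked on simulated counts. Where a group is 1 library, exact 95% intervals are given and no test; they and all other intervals cover counting error only. Correlations and within-library comparisons used log2(CPM + 10). Genes named beyond the members were, of each list, up to 4 called members with most macrophage UMIs per comparison, and the 5 genes most alike by correlation among those with at least 200 UMIs; others are said to be chosen after their values were seen or are relatives given as levels. Some genes that these rules or the marker lists name are not reported here. Motifs were searched in RefSeq promoters of GRCm38.p6, and 99.6% of gene IDs matched GENCODE vM21. Alternatives covered the filters, the gate, clusters in its place, thinning to 2000 UMIs, the scaling and each library left out. Library totals of 5782054 to 22749375 UMIs set the precision, which is lowest for Fcgr4.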

Additional observations from a re-analysis of the deposited data

Results flagged for a closer look

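In macrophages the old to young log2 ratios of 5 Fc receptor genes had opposite signs in control and in the other treatments, with 1 library in each group, so the difference was not tested. Between control and HU the ratio differed by 1.86 for Fcgrt, 1.09 for Fcgr1, 1.09 for Fcgr2b, 0.94 for Fcgr3 and 0.74 for Fcer1g. Between control and reload it differed by 1.19 for Fcgrt, 0.89 for Fcgr2b, 0.82 for Fcgr1, 0.81 for Fcgr3 and 0.46 for Fcer1g. On mean UMIs per cell the signs were no longer opposite for Fcgr3 (-0.12 in control and -0.20 in HU), Fcgr2b (-0.01 and -0.24) and Fcer1g (-0.18 and -0.06), while Fcgrt was at 0.35 and -0.65 and Fcgr1 at 0.14 and -0.09. In reload, 183 of 1201 old and 118 of 1300 young macrophages had no monocyte marker. Their ratios were 0.08 for Fcgr1 (-0.39 to 0.57), 0.04 for Fcgrt (-0.18 to 0.27) and -0.01 for Fcgr2b (-0.21 to 0.20). Each interval included 0, so the signs there are within counting error. Control libraries were sequenced on another flow cell, and old control macrophages carried the highest level of neutrophil markers, 2829 CPM against 355 in young control. Without the macrophages that held any neutrophil marker, the 5 genes kept opposite signs in control and in the other treatments. Fcgrt was then at 0.84 in control and -1.0035 in HU. The part of the flow cell and of these markers in the ratios was not tested.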

How the results depend on the processing

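Fc receptor calls were recomputed under each alternative. Of the log2 fold changes of single receptors under alternatives, 744 kept their direction and side of the threshold, 8 passed it newly, 19 lost it and 39 changed sign; of counts of receptors called, 187 stayed within 1.5 times and 18 did not. Of log2 ratios between single libraries 307 stayed within their counting interval, 130 moved and 1 called ratio turned; of shares of macrophages, taken at 1000 UMIs or with no thinning, 8 stayed and 64 moved, and of activating to inhibitory ratios 32 stayed and 10 moved. No paired analysis was possible because each group holds only replicate 1, which is a library and pairs nothing.

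Genes called changed by over 1.5 times as follows. Under thinning to 2000 UMIs, 1192 genes were called for B against T cells, 1467 for monocytes, 2996 for neutrophils and 1311 for type 2 dendritic cells against macrophages, 795 for resident and 221 for interferon-stimulated cells, and 1 for age. DESeq2 called 811 genes for resident cells, 181 for interferon-stimulated cells and 5 for age, and with no filter on low counts 26 were called for age and 1723 for reload against HU. The stricter gate gave 353 for reload against HU, and clusters gave 967 for interferon-stimulated cells. Without TMM 1 receptor was called for resident cells, and with clusters 6 were called for B against T cells. The cause was not tested.

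Signs of fitted changes turned for receptors that had not passed in the main setting. In B against T cells these were Fcgr1 (-0.024) and Fcgr4 (-0.040) under thinning, Fcgr3 with DESeq2 (0.077), a mitochondrial limit of 5% (0.20), the stricter gate (0.49), clusters (5.96) and thinning (0.96), and Fcgrt with clusters (2.55). In NK against T cells Fcgr1 was at 0.65 with clusters and 0.36 under thinning, and Fcgr4 at 0 with DESeq2. Fcgr3 was at -0.17 without TMM in neutrophils and at -0.046 under thinning in reload against HU. Fcgr1 was at 0.0078 for age under the stricter gate, Fcgr2b at -0.0055 for interferon-stimulated cells with clusters, and Fcer1g at -0.00013 with DESeq2, -0.022 with no filter and -0.022 under the stricter gate for resident cells. The ratio of Fcgrt for old reload over old HU, at -0.76 and past the size rule in the main setting, also turned. It was at 0.27 in macrophages with no monocyte marker.

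The activating to inhibitory ratio with Fcgr3 alone was 1.46 and 1.57 in old and young control, 0.788 and 0.768 in HU, and 0.904 and 0.923 in reload. With clusters it was 1.83 and 1.92 in control and 1.46 in young reload, and with a mitochondrial limit of 5% it was 1.55 in old reload. The receptors past the size rule for age numbered 0 in HU without resident cells, 1 with TMM and 1 on mean UMIs per cell. No limit on UMIs was set for these counts, and in the main control setting Fcgr1, Fcgrt and Fcgr4 were past the rule. In control the receptors past it numbered 1 without interferon-stimulated cells and 0 on mean UMIs per cell. In reload they numbered 1 at a mitochondrial limit of 5%, 1 under thinning, 2 without resident cells, 3 on mean UMIs per cell, 1 with every cell weighted equally, 1 with no neutrophil-marker cells and 1 with no monocyte-marker cells. For reload over HU, 5 passed in old and 5 in young on mean UMIs per cell.

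With each library left out in turn, genes called ran from 0 to 1962 for reload against HU (0 without young control or young reload), 269 to 902 for NK against T cells, 1101 to 1966 for B against T cells, 1900 to 2799 for monocytes, 812 to 1250 for resident and 152 to 528 for interferon-stimulated cells. Receptors called ran from 0 to 3 for reload against HU. Log2 fold changes that changed sign ran from -0.26 to 0.13 (Fcgr1), -0.23 to 0.031 (Fcer1g) and -0.62 to 0.19 (Fcgrt) for age, and from -0.36 to 0.075 (Fcgr2b) and -0.12 to 0.27 (Fcgr3) for reload against HU. They ran from -0.054 to 0.039 (Fcer1g) for resident cells, -0.0019 to 0.068 (Fcgr2b) for interferon-stimulated cells, -0.31 to 0.35 (Fcgr4) for monocytes and -0.038 to 0.30 (Fcgr3) for neutrophils. For B against T cells they ran from -1.71 to 0.50 (Fcgr1) and -1.59 to 1.20 (Fcgr3), and for NK against T cells from -0.89 to 2.43 (Fcgr2b). Depth limits Fcgr4 most, with 31 to 54 UMIs in macrophages of each control and HU library.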

Other observations

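T cells held few UMIs of Fcgrt, and a difference between ages was noticed after the values were seen, so it is given as values only. Fcgrt had 30.6 CPM in old and 8.25 in young control T cells, 52.2 in old and 0 in young HU, and 40.6 in old and 16.7 in young reload. These rest on 67 UMIs in 532 old control cells, against 4 UMIs in 111 young control cells, and on 20 against 0 and 12 against 3 UMIs in HU and reload. The 0 UMIs in 30 young HU T cells allow up to 51.5 CPM (exact 95% interval), which overlaps the interval of old HU, 31.9 to 80.6 CPM.

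Among old T cells the UMIs of Fcgrt were counted mostly in those without Trdc or Trdv4, which mark gamma delta T cells. Old control had 0 UMIs in 124 cells with either gene and 67 UMIs in 408 cells with neither. C1qa, a macrophage marker, had 0.915 CPM in old control T cells, and Fcer1g 57.2 CPM.

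Arg1, a target of IL-4 in mouse macrophages, had 35.7 and 59.8 CPM in old and young reload macrophages, against 0.352 and 0.496 CPM in HU, and 0.452 and 0.676 in old and young control, with the reload libraries apart from the other 4. The filter on low counts grouped libraries by age in that comparison, so a gene counted in the reload libraries alone could not pass it. Arg1 did not pass, so no test is given.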
